A study of Homo sapiens with 8 samples.

Results

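The subunit genes of the mitochondrial respiratory chain and of ATP synthase were taken by their symbols in the probe-to-gene table used here. The rule took the numbered NDUF names of the A, B, C, S and V series (complex I), SDHA to SDHD (complex II), every UQCR name (complex III), and names that begin with ATP5F1, ATP5M or ATP5P (ATP synthase). For complex IV it took COX4 to COX8 names in which at most a letter from A to C and a single digit follow, so COX4I1 and COX7A2L were not members and are described with the accessory genes at the end. The rule found 22 genes of the 14884 genes named in that table. They were 6 genes of complex III, 14 of complex IV and 2 of ATP synthase. Complexes I and II had 0 genes under this rule, and their subunits are not analysed here.

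RNA was measured on 8 Affymetrix arrays from CCRF-CEM and HPB-ALL, 2 human cell lines established from T-cell acute lymphoblastic leukemia (T-ALL). In each line 1 array came from cells carrying a scramble shRNA, 1 from cells carrying shTOX-1, 1 from cells carrying shTOX-2 and 1 from untransduced cells. The hairpins shTOX-1 and shTOX-2 target TOX, an HMG-box DNA-binding protein of developing T cells. Transduced cells received virus by spinoculation, were selected with puromycin and were then held for at least 2 weeks, which the untransduced cells were not stated to share. Each line and construct had a single array, so the spread below is that between arrays of a fit, and nothing in the labels says that arrays of different constructs came from separately handled cultures or from a common batch. The design compares the lines, the transduced cells with the untransduced cells, and the TOX hairpins with their controls.

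The respiratory chain passes electrons from NADH and succinate to oxygen through complexes I to IV and pumps protons across the inner mitochondrial membrane, and ATP synthase uses the returning protons to make ATP. Complex III (cytochrome bc1) hands electrons from ubiquinol to cytochrome c. Complex IV (cytochrome c oxidase) passes them to oxygen. The subunits measured here are encoded in the nucleus, and several complex IV subunits exist as a general form and a form restricted to muscle, testis or other tissues.

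Values are the deposited log2 intensities, for which 1 unit is a doubling of the signal, and a level can be compared between arrays but not between genes. TOX lay at 11.03 on the scramble and untransduced arrays of CCRF-CEM, at 10.65 on its shTOX-1 array and at 9.86 on its shTOX-2 array. The HPB-ALL arrays had 10.59 (scramble), 10.64 (untransduced), 10.16 (shTOX-1) and 8.75 (shTOX-2). The array medians lay between 4.62 and 4.713. Correlations between arrays were 0.949 to 0.985 within a line and 0.876 to 0.908 between lines. Of 11 T cell markers measured, 10 were above the filter on the mean level (CD2 was below it). CD28 passed the filter (5.184) only through CCRF-CEM, with 4.61 to 4.84 on the HPB-ALL arrays. The mean of all 11 was 8.768 to 9.483 on the CCRF-CEM arrays and 7.035 to 7.711 on the HPB-ALL arrays. Mean levels of the B cell, myeloid, erythroid and fibroblast or epithelial lists lay between 4.352 and 5.742 on all 8 arrays. In the myeloid list MPO differed between the HPB-ALL arrays, with 7.03 in scramble and 7.94 in shTOX-2 cells against 5.10 in shTOX-1 and 4.83 in untransduced cells, and CD68 lay at 7.28 to 7.46 on these arrays. KRT18 (mean 7.43) and KRT8 (6.04) of the epithelial list were also above the filter. So were PF4 (6.11) and GP9 (5.27) of the erythroid list and PAX5 (5.33) of the B cell list.

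The promoters of the genes that the results below turn on show what lies just upstream of their start sites. They were read from RefSeq on GRCh38.p14, as the 120 bases before the annotated start, 5′ to 3′ on the gene's own strand. Capitals mark a match, on either strand, to the site of NRF1 (CGCANGCGC), of the ETS factor GABP (CCGGAAG) or of YY1 (AANATGGC), which are activators of many nuclear genes for mitochondrial proteins.
UQCRC1, chr3:48609647-48609766, minus strand: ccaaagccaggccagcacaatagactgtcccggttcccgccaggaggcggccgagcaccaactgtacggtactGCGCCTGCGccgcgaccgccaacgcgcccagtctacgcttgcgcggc
UQCRH, chr1:46303578-46303697, plus strand: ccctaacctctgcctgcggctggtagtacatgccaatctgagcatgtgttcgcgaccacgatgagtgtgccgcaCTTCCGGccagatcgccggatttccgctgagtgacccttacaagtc
COX5A, chr15:74938074-74938193, minus strand: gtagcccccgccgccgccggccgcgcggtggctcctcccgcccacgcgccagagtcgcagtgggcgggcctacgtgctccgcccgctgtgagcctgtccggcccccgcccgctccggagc
COX7B, chrX:77899348-77899467, plus strand: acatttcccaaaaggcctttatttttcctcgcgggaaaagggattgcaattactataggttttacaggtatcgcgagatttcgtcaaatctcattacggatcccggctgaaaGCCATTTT
ATP5MJ, chr14:103921530-103921649, minus strand: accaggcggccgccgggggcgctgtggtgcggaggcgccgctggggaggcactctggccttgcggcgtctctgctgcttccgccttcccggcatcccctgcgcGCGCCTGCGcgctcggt

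The match in the UQCRC1 and in the ATP5MJ stretch is to the NRF1 site, that of UQCRH is to the ETS site and that of COX7B is to the YY1 site. UQCRC1 also held a YY1 match 24 bases after its start, and the COX5A stretch held no match to these sites. A promoter window, from 250 bases before to 50 bases after the start, was given for 17 of the 22 genes. A gene counted if any of its windows held a match. NRF1 sites were found in 4 of the 17 (23.5%, against 9.01% of all 27305 genes with a promoter window). ETS sites were in 6 (35.3% against 12.2%) and YY1 sites in 5 (29.4% against 7.97%). Of the 14 tested members with a window, 3 had an NRF1, 6 an ETS and 5 a YY1 match. The ERR site TCAAGGTCA was in 0 of the 17 (0% against 0.432% of all genes). These are letter matches only, and no binding was measured.

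Of the 22 genes, 17 had a mean at or above the filter (log2 5.18, the 40th percentile of all genes) and were tested among 8930 genes. The genes below it were UQCRBP1, a pseudogene of UQCRB, and the complex IV forms COX6B2, COX7A1, COX7B2 and COX8C. COX6B2 (testis form) lay between 3.99 and 4.65 over the 8 arrays. COX7A1 (heart and muscle form) lay between 4.23 and 4.53, and COX7B2 between 2.99 and 3.17. COX8C lay between 2.91 and 3.54 and UQCRBP1 between 3.62 and 4.33. COX6A2, the heart and muscle form of COX6A, passed the filter narrowly with 5.03 to 5.57 on the 8 arrays. Only its shTOX-2 arrays lay above the filter level. The general forms COX6A1 (12.41 to 12.93), COX7A2 (7.78 to 8.47), COX7B (7.72 to 8.59) and COX8A (11.03 to 11.59) passed it on every array. COX6A1 had a second probe set, not used in the tests, that lay between 4.90 and 5.61. UQCRH and UQCRHL are near-identical copies, and how the array splits their signal is uncertain.

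**Figure D1:**
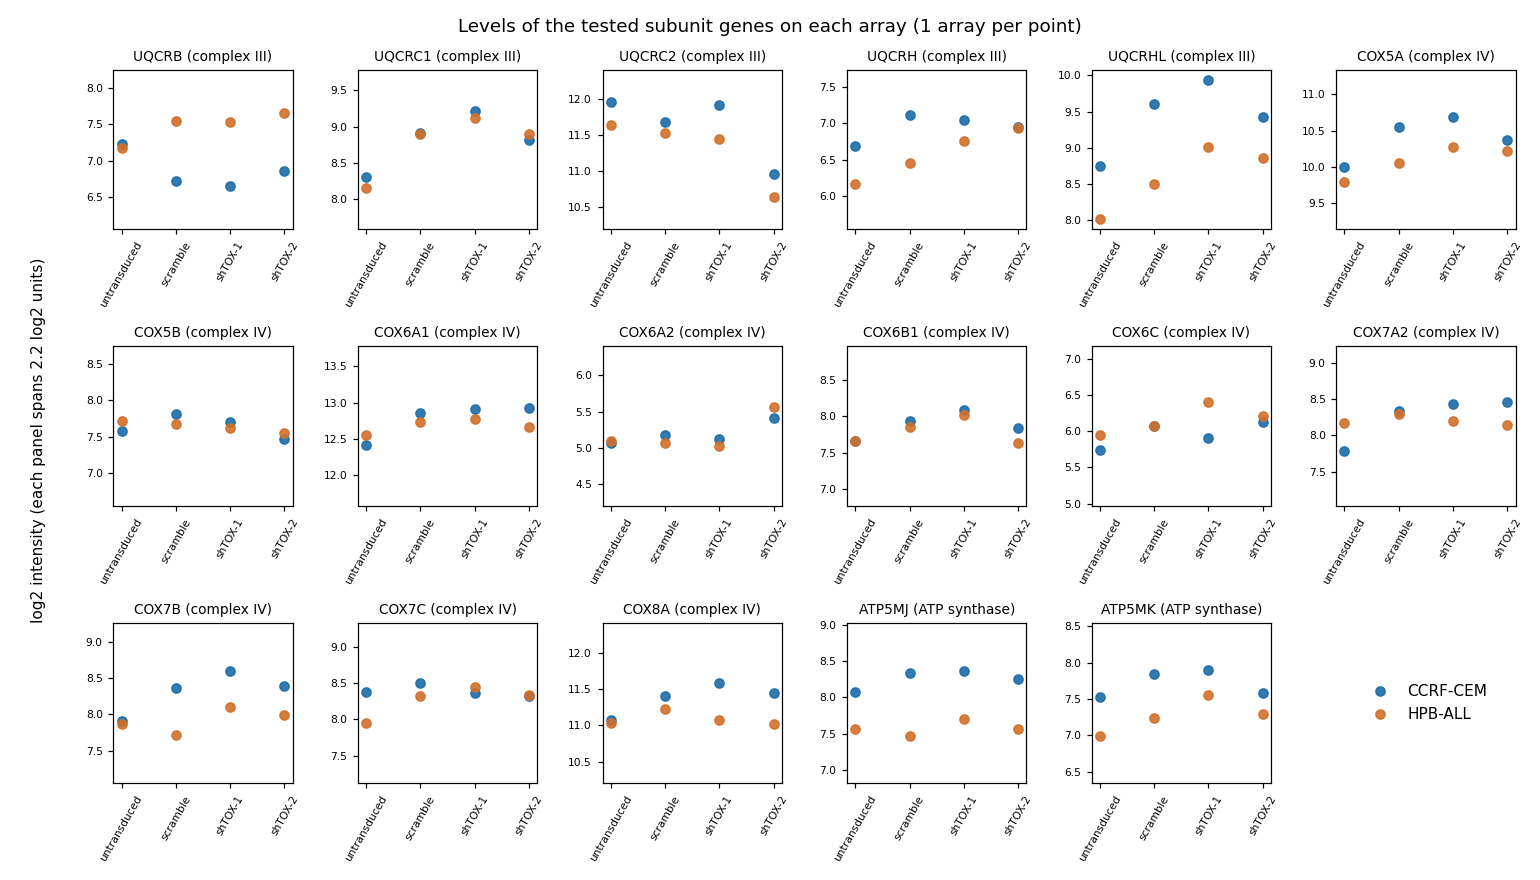
Level (log2 intensity, y axis, 2.2 units per panel) of each of the 17 tested subunit genes in the 4 kinds of cells (x axis), with blue points for CCRF-CEM and orange points for HPB-ALL. Each point is 1 array; UQCRC1 is lowest in the untransduced cells of both lines, UQCRC2 is lowest with shTOX-2 in both lines, and ATP5MJ is above 8 on every CCRF-CEM array and below 7.8 on every HPB-ALL array.

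The lines differed in both ATP synthase subunits that the rule found, in 2 subunits of complex III and in 1 of complex IV. Other subunits of ATP synthase were not analysed. ATP5MJ, ATP5MK, UQCRHL and COX7B were higher in CCRF-CEM, and UQCRB was lower. With limma and Benjamini-Hochberg adjustment over all tested genes, 4 of the 17 members were called higher and 1 lower at an adjusted p under 0.05, which is 29.4%. Over all genes, 27.4% were called, so the members were called about as often as the rest. Their median difference, CCRF-CEM minus HPB-ALL, was 0.131 on the log2 scale, against -0.00562 over all genes tested. Of the 17 differences, 14 were positive, against 4399 of 8930 over all genes.

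ATP5MJ is a small subunit at the membrane part of ATP synthase. Its level in CCRF-CEM was 8.34 in scramble, 8.37 in shTOX-1, 8.26 in shTOX-2 and 8.07 in untransduced cells, and in HPB-ALL it was 7.47, 7.70, 7.56 and 7.57 in the same order. Every CCRF-CEM array was above every HPB-ALL array. ATP5MJ was 1.61-fold higher in CCRF-CEM (log2 difference 0.69 ± 0.11, SE; limma adjusted p = 0.00131). It was the 1 member whose arrays did not overlap between the lines, in a background of 12.8% of all genes higher and 14.2% lower without overlap.

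ATP5MK, another small membrane subunit of the enzyme, was 7.84 in scramble, 7.90 in shTOX-1, 7.58 in shTOX-2 and 7.52 in untransduced CCRF-CEM cells. In HPB-ALL it was 7.24, 7.55, 7.30 and 6.98 in the same order. The shTOX-1 array of HPB-ALL reached into the CCRF-CEM range. The difference was 1.36-fold (0.44 ± 0.14; limma adjusted p = 0.0396).

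UQCRHL, named as a copy of the hinge subunit that lies between cytochrome c1 and cytochrome c, was 9.61 in scramble, 9.93 in shTOX-1, 9.43 in shTOX-2 and 8.75 in untransduced CCRF-CEM cells. In HPB-ALL the values were 8.50, 9.01, 8.86 and 8.02. The untransduced array was the lowest in each line, and in CCRF-CEM it fell inside the HPB-ALL range. UQCRHL was 1.78-fold higher in CCRF-CEM (0.83 ± 0.20; limma adjusted p = 0.0126). Its copy UQCRH had a difference of 0.38 ± 0.15 that did not pass the test (limma adjusted p = 0.0865).

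UQCRB, a small subunit near the ubiquinone site of complex III, was 6.71 in scramble, 6.64 in shTOX-1, 6.86 in shTOX-2 and 7.23 in untransduced CCRF-CEM cells. In HPB-ALL it was 7.54, 7.54, 7.66 and 7.17. The lines were apart in the transduced cells and close in the untransduced cells. UQCRB was 1.53-fold lower in CCRF-CEM over all arrays (-0.62 ± 0.16; limma adjusted p = 0.0182).

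COX7B, a small subunit of complex IV, was 8.37 in scramble, 8.59 in shTOX-1, 8.39 in shTOX-2 and 7.91 in untransduced CCRF-CEM cells and 7.72, 8.10, 7.995 and 7.87 in HPB-ALL cells. The lines overlapped at the untransduced array. COX7B was 1.31-fold higher in CCRF-CEM (0.39 ± 0.13; limma adjusted p = 0.0483). The other 9 tested complex IV subunits were not called, with differences from -0.19 (COX6C) to 0.32 (COX5A, which lies on the matrix side of the complex). The large matrix-side subunits of complex III were not called either: UQCRC1 differed by 0.04 ± 0.19 and UQCRC2 by 0.31 ± 0.23 (limma adjusted p = 0.343). With the construct as a block shared by the lines, UQCRC2 was called higher in CCRF-CEM (limma adjusted p = 0.0488).

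The calls of ATP5MJ and UQCRHL were kept when any single array was left out, and the other calls rested on single arrays. COX7B was not called when any array but the CCRF-CEM untransduced one was left out (limma adjusted p from 0.0655 to 0.132), nor without the filter on the mean level (0.0533). ATP5MK was not called without the CCRF-CEM scramble or shTOX-1 array or the HPB-ALL scramble, shTOX-2 or untransduced array (0.0519 to 0.113), and UQCRB was not called without any 1 of the shTOX arrays (0.0534 to 0.0627). The member count ranged from 2 to 6 on leaving out 1 array: it was 2 without the CCRF-CEM shTOX-1 or the HPB-ALL shTOX-2 array, and 3 without the CCRF-CEM scramble or shTOX-2 array or the HPB-ALL scramble, shTOX-1 or untransduced array. Of the T cell markers, 9 of 10 tested were higher in CCRF-CEM by limma (LCK by 2.40) and 0 were lower. The 9 include CD28, which passed the filter only through CCRF-CEM. CD68 of the myeloid list was lower (-0.75). The part of these markers in the differences of the subunit genes was not tested. In bulk RNA a lower level per cell and fewer cells with the gene on cannot be told apart.

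**Figure D2:**
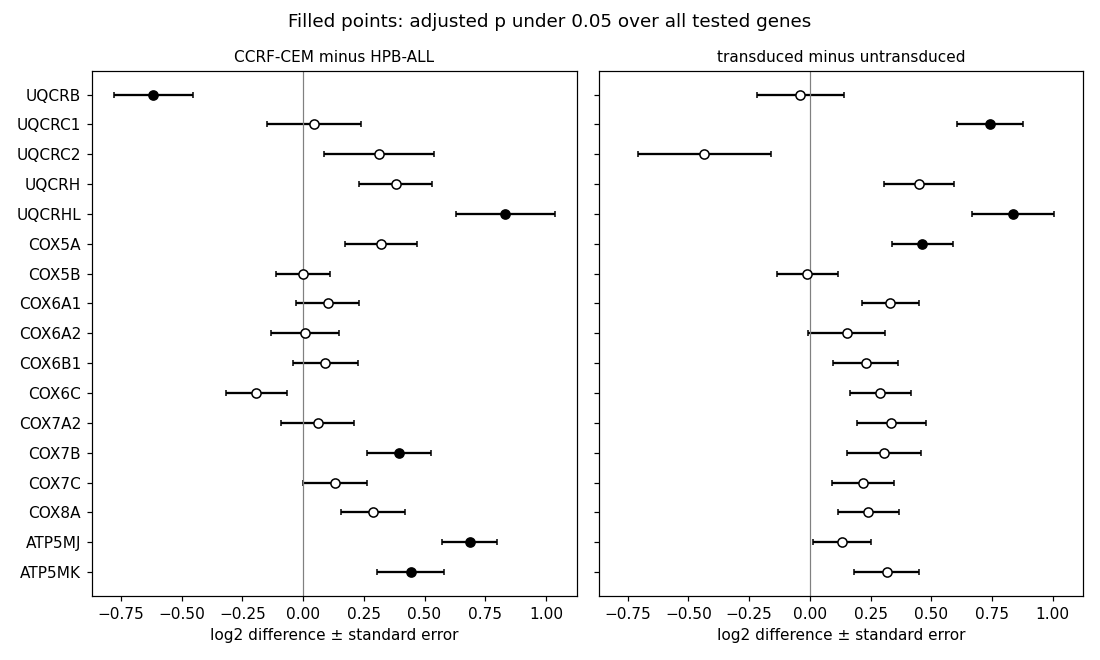
Log2 difference (x axis, points, with bars of 1 standard error) of each tested subunit gene between the lines (left) and between transduced and untransduced cells (right), from 8 arrays each. Filled points passed the limma test at an adjusted p under 0.05: ATP5MJ, ATP5MK, COX7B, UQCRB and UQCRHL on the left, and COX5A, UQCRC1 and UQCRHL on the right.

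Transduced cells had more RNA of 3 subunits than untransduced cells. UQCRC1, UQCRHL and COX5A rose, and 0 of the 17 members fell by the limma test. The 3 called members are 17.6% of those tested, in a background of 11% of all genes called in either direction and 5.97% called higher. The median difference, transduced minus untransduced, was 0.291 over the members and 0.0325 over all genes tested. Of the 17 differences, 14 were positive (16 after quantile normalization), against 4838 of 8930 over all genes. The comparison sets 6 transduced arrays against 2 untransduced arrays, 1 per line.

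UQCRC1, a large matrix-side subunit of complex III, was 8.31 in untransduced CCRF-CEM cells and 8.92, 9.21 and 8.82 in scramble, shTOX-1 and shTOX-2 cells. In HPB-ALL it was 8.16 in untransduced cells and 8.90, 9.11 and 8.89 in the transduced ones. The untransduced array was the lowest of each line, and every transduced array of both lines lay above both of them. UQCRC1 was 1.67-fold higher in transduced cells (0.74 ± 0.14; limma adjusted p = 0.0109).

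UQCRHL, whose 8 values are given above, was 1.78-fold higher in transduced cells (0.84 ± 0.17; limma adjusted p = 0.0158). UQCRH was 6.69 in untransduced CCRF-CEM cells and 6.95 to 7.12 in transduced ones, and 6.16 against 6.45 to 6.93 in HPB-ALL. Both untransduced arrays were again the lowest of their line. The UQCRH difference of 0.45 ± 0.14 did not pass the test (limma adjusted p = 0.0707).

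COX5A was 10.00 in untransduced CCRF-CEM cells and 10.55, 10.69 and 10.38 in scramble, shTOX-1 and shTOX-2 cells. In HPB-ALL it was 9.79 in untransduced cells and 10.05, 10.27 and 10.22 in the transduced ones. The difference was 1.38-fold (0.46 ± 0.13; limma adjusted p = 0.0436). It was not called with the construct as a block shared by the lines, where its limma adjusted p was 0.0528, or without the filter on the mean level (0.0525). It was also not called when either shTOX array of a line or the CCRF-CEM scramble array was left out.

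The general subunit COX6A1, with a difference of 0.33 ± 0.12 (limma adjusted p = 0.0947), was not called, nor were COX7A2 (0.34 ± 0.14) and ATP5MK (0.32 ± 0.13). In both lines the untransduced array was below all 3 transduced arrays for 7 of the 17 members: ATP5MK, COX5A, COX6A1, COX6C, UQCRC1, UQCRH and UQCRHL. Over all genes 20.5% behaved so. The untransduced array was above all transduced arrays in both lines for 1 member, UQCRC2, in a background of 16.7%. UQCRC2 differed by -0.43 ± 0.27 (limma adjusted p = 0.327), and its values are given with the hairpins below.

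The transduction calls of the members were lost without either untransduced array. Without the CCRF-CEM untransduced array 0 members and 12 of the 8930 genes were called, and without the HPB-ALL untransduced array 0 members and 307 genes, against 984 with all arrays. For UQCRC1 the limma adjusted p was then 0.124 and 0.0986. With no term for the line, 0 members were called and that of UQCRC1 was 0.0523.

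The proliferation markers moved the same way. All 18 were above the untransduced array in the scramble cells of both lines, as were 3015 of all 8930 genes. By the limma test 5.97% of all genes rose in transduced cells, and 15 of the 18 markers did (CCNB1 by 1.27). Their mean level was 9.598 to 9.813 on the untransduced and 10.22 to 10.63 on the transduced arrays. Among the T cell markers PTCRA fell (-1.63) and 0 of 10 rose, and the mean of the list was 7.711 to 9.483 on the untransduced and 7.035 to 9.04 on the transduced arrays. The part of these differences in the values of the subunit genes was not tested.

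The scramble cells alone, against the untransduced cells, had 0 members called by limma, in a background of 1.06% of all genes (95 genes). At an unadjusted limma p under 0.05 there were 3 of the 17 members and 1565 of the 8930 genes. The scramble and untransduced arrays also enter the comparison of all transduced cells. UQCRC1 had a difference of 0.67 ± 0.17 (limma adjusted p = 0.0909), UQCRHL of 0.67 ± 0.20 (0.123) and COX5A of 0.41 ± 0.16 (0.237).

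Whether transduction went with a different change in each line was tested by the interaction. It called 0 of the 17 members and 0.0672% of all genes by limma. At an unadjusted limma p under 0.05 there were 2 members and 425 of the 8930 genes. For UQCRB the transduced cells lay below the untransduced cells in CCRF-CEM and above them in HPB-ALL, and the difference between the lines was -0.90 ± 0.24 (limma adjusted p = 0.516). For COX7A2, a small complex IV subunit, the difference between the lines was 0.59 ± 0.23 (limma adjusted p = 0.934). Its untransduced array was at 7.78 against 8.34 to 8.47 in CCRF-CEM and at 8.17 against 8.14 to 8.29 in HPB-ALL.

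No subunit gene passed the test for the TOX hairpins. Against all controls (scramble and untransduced), 0 of 17 members were called by limma, as were 0% of all genes, and 3 members and 1277 genes had an unadjusted p under 0.05. The median difference, shTOX minus controls, was 0.182 over the members and 0.0262 over all genes. UQCRHL had the largest positive difference, 0.59 ± 0.20 (limma adjusted p = 0.301), followed by UQCRC1 with 0.44 ± 0.19 (0.347), and UQCRC2 had the largest negative difference, -0.46 ± 0.23 (0.376). COX7B had 0.30 ± 0.13 (0.341), and it was the 1 member with all shTOX arrays above the control arrays of their line, in a background of 6.36%. No member lay below them on all arrays (background 4.99%). The control arrays include the untransduced cells, which stood lower for most members.

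Against the scramble cells, which share transduction and selection, the members' median lay nearer to 0. Again 0 of 17 members and 0% of all genes were called by limma, with 0 members and 459 genes at an unadjusted p under 0.05. The median difference, shTOX minus scramble, was 0.0488 over the members and 0.016 over all genes. Of the 17 differences, 11 were positive (13 after quantile normalization), against 4806 of 8930 over all genes. UQCRHL differed by 0.25 ± 0.17, COX7B by 0.23 ± 0.15 and ATP5MJ by 0.07 ± 0.13. COX5B, whose protein binds zinc on the matrix side of complex IV, differed by -0.15 ± 0.13, and UQCRC1 by 0.10 ± 0.15.

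**Figure D3:**
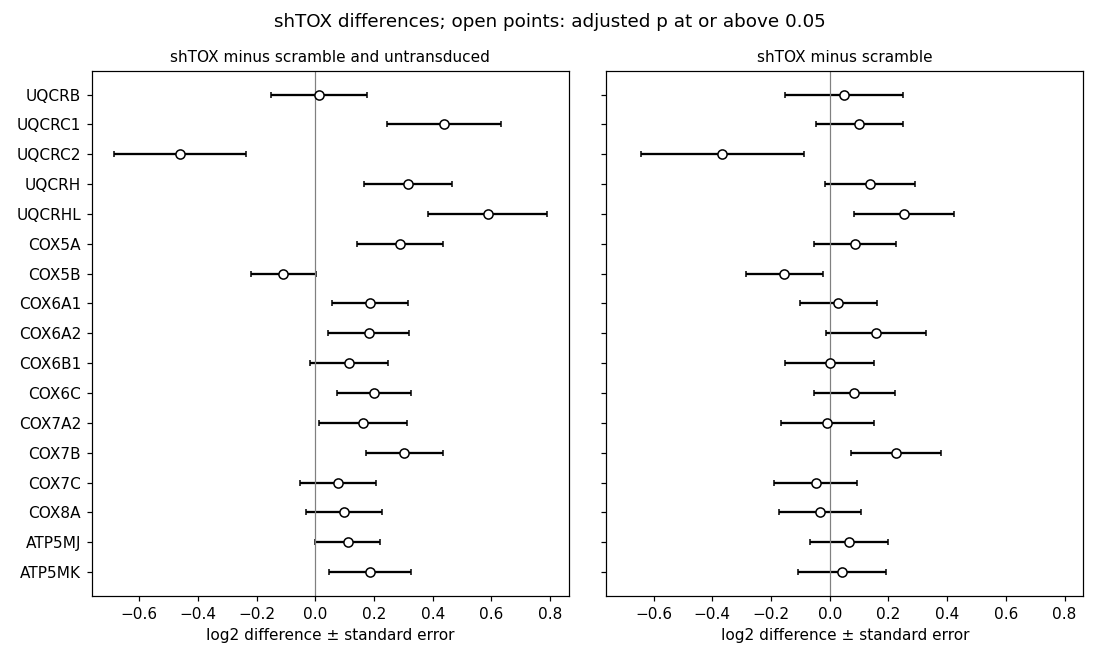
Log2 difference (x axis, points, with bars of 1 standard error) of each tested subunit gene between shTOX cells and all controls (left) and between shTOX and scramble cells (right), from 8 arrays each. All points are open because 0 members passed the limma test; UQCRHL lies farthest to the right in both panels and UQCRC2 farthest to the left.

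UQCRC2, the partner of UQCRC1 in the matrix-side part of complex III, was low in the cells with shTOX-2. In CCRF-CEM its level was 11.68 in scramble, 11.91 in shTOX-1, 10.96 in shTOX-2 and 11.96 in untransduced cells. In HPB-ALL it was 11.53, 11.45, 10.64 and 11.63 in the same order. The shTOX-2 array was the lowest of each line, and the other 3 arrays of a line lay close together. The contrast of the hairpins was added after these values were seen. It gave shTOX-2 minus shTOX-1 as -0.88 ± 0.17 for UQCRC2, a 1.84-fold lower level (limma adjusted p = 0.401). It called 0 of 17 members and 0% of all genes, with 2 members and 381 genes at an unadjusted p under 0.05. TOX itself was lower with shTOX-2 than with shTOX-1 in both lines, and whether the UQCRC2 level goes with TOX or with the hairpin cannot be told apart.

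The other member with an unadjusted p under 0.05 was COX6A2, near the filter level. COX6A2 passed the filter (5.184) only through its shTOX-2 arrays, where it was high, so this contrast cannot support a difference. It was 5.41 with shTOX-2 and 5.13 with shTOX-1 in CCRF-CEM and 5.57 against 5.03 in HPB-ALL, a difference of 0.41 ± 0.15 (limma adjusted p = 1). The remaining members differed by -0.33 (UQCRHL) to 0.17 (UQCRB) between the hairpins. Of all 17 differences, 13 were negative, against 5220 of 8930 over all genes. The median was -0.129 over the members and -0.0419 over all genes.

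On the single arrays, the members of each line can be set against its scramble array. The median over the 17 members was 0.0627 for shTOX-1, -0.0971 for shTOX-2 and -0.327 for untransduced cells in CCRF-CEM. It was 0.163, 0.0536 and -0.189 in HPB-ALL. The untransduced arrays were thus farthest from the scramble array in both lines, with 15 and 12 of the 17 members below it. Over all genes tested, 4710 (CCRF-CEM) and 4622 (HPB-ALL) of 8930 were below it, with medians of -0.0229 and -0.016. Of the 10 complex IV subunits tested, 10 were below the scramble array in untransduced CCRF-CEM cells and 7 in untransduced HPB-ALL cells.

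**Figure D4:**
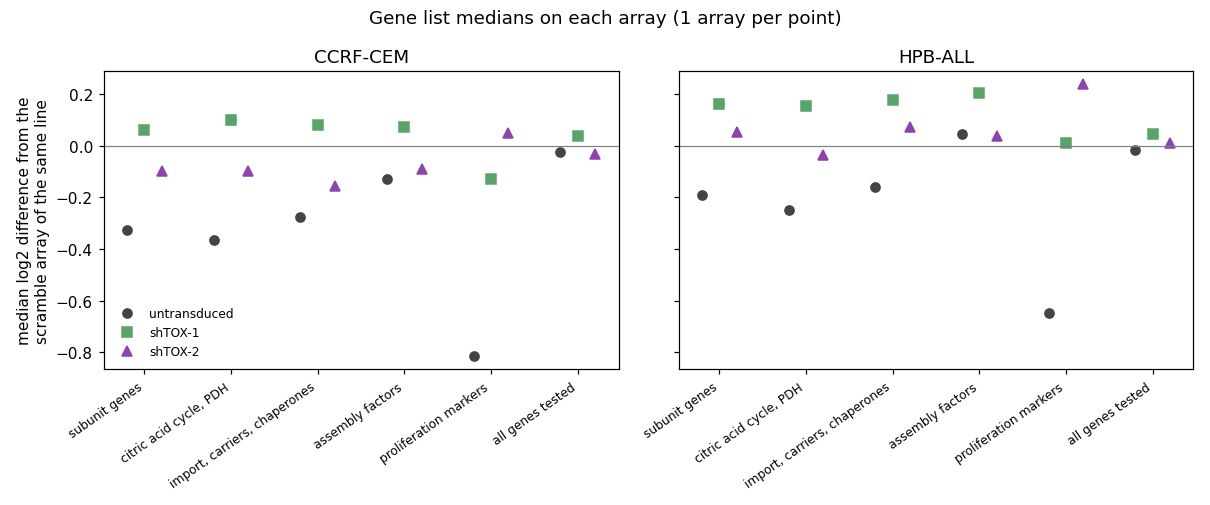
Median log2 difference from the scramble array of the same line (y axis) for 6 sets of genes (x axis) on the untransduced (circles), shTOX-1 (squares) and shTOX-2 (triangles) arrays of CCRF-CEM (left) and HPB-ALL (right), 1 array per point. The untransduced arrays are at -0.327 and -0.189 for the subunit genes and at -0.814 and -0.649 for the proliferation markers.

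Genes that work beside the subunits were described from lists, whose counts stand beside the background over all genes of 27.4% called between the lines and 11% called for transduction. Of 9 accessory and carrier genes outside the naming rule, 4 were tested. COX4I1, the general form of the largest nuclear subunit of complex IV, rose in transduced cells by 0.56 ± 0.12 (limma adjusted p = 0.0175). CYC1, cytochrome c1 of complex III, rose by 0.69 ± 0.12 (0.00892). Between the lines 1 of the 4 was called: COX7A2L, which joins complexes III and IV, was higher in CCRF-CEM by 0.48 ± 0.11 (0.00992). Of the 3 tested genes that feed electrons to ubiquinone by other routes, SQOR, which oxidises sulfide, was higher in CCRF-CEM by 3.13 ± 0.18 (limma adjusted p = 8.4e-07). ETFDH, which takes electrons from fatty acid oxidation, rose in transduced cells by 0.52 ± 0.14 (0.0465).

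Assembly factors build the complexes without being part of them, and 44 of 59 listed were tested. Between the lines 2 were higher and 9 lower in CCRF-CEM by limma, a share of 25% that is close to the background of 27.4%. ATPAF1, which assembles the catalytic head of ATP synthase, was higher by 1.26 ± 0.15 (limma adjusted p = 0.000187), while TMEM70, which assembles its membrane part, was lower by 0.53 on the log2 scale (-0.53 ± 0.12). COX19 (-0.53 ± 0.11), SCO1 (-0.42 ± 0.13) and COX11 (-0.39 ± 0.12), which take part in bringing copper to complex IV, were lower too, and COX18 was higher (0.41 ± 0.12). In transduced cells 3 assembly factors rose and 2 fell by limma, a share of 11.4% against the background of 11%. COA3 (0.66 ± 0.19), UQCC2 (0.51 ± 0.14) and CMC2 (0.49 ± 0.12) rose, and CMC1 (-0.99 ± 0.22) and COA5 (-0.82 ± 0.16) fell.

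Of the regulators of these genes and of mitochondrial DNA, 7 of 18 were tested. YY1 (0.37 ± 0.12) and CREB1 (0.36 ± 0.12), both transcription factors, were higher in CCRF-CEM by limma, and MTERF1, a mitochondrial DNA-binding protein, was lower (-0.50 ± 0.12). In transduced cells 0 of the 7 were called. Of 13 mitochondrially encoded subunits 0 were named in the table used here.

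The citric acid cycle and pyruvate dehydrogenase list had 10 of 18 genes tested, of which 3 rose and 0 fell in transduced cells by limma: OGDH (0.72 ± 0.14), DLAT (0.64 ± 0.15) and PDHB (0.50 ± 0.12), all parts of oxo-acid dehydrogenase complexes. IDH3A (0.45 ± 0.11) and IDH3G (0.59 ± 0.11), subunits of isocitrate dehydrogenase, were higher in CCRF-CEM. Of 16 tested genes of mitochondrial import, carriers, chaperones and cristae, 2 rose and 0 fell in transduced cells: TOMM40, the outer membrane import channel (0.78 ± 0.16), and VDAC1, the outer membrane pore (0.54 ± 0.12). All 16 differences were positive, with a median of 0.192. Over all genes 4838 of 8930 were positive, with a median of 0.0325. TOMM70 was higher (0.43 ± 0.13) and TIMM44 lower (-0.50 ± 0.13) in CCRF-CEM. Without the HPB-ALL untransduced array, TOMM40 and COA5 kept their calls among these transduction genes, and without the CCRF-CEM one 0 did. TOMM40 was not called with the mean of its probe sets (limma adjusted p = 0.458). ETFDH, UQCC2 and COA3 were not called without the filter on the mean level, and these, CMC2 and PDHB also lost their call without 1 or more of the transduced arrays, among them CCRF-CEM shTOX-1.

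Of the line calls in these lists, SQOR, COX7A2L, ATPAF1, TMEM70, COX19, MTERF1 and IDH3G were kept on leaving out any single array. SQOR had passed the filter only through CCRF-CEM, so its kept call is no separate support for a difference. NDUFAF7, COA1, SDHAF3, COX11, COX18, SCO1, COA4, COA7, YY1, CREB1, IDH3A, TOMM70 and TIMM44 were each lost without 1 or more arrays. No gene of these lists was called in either shTOX comparison by limma, where 0 of all genes were.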

How the data were processed

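RNA of 8 cell samples was hybridised to Affymetrix whole-transcript arrays. The authors deposited log2 intensities for 53617 probe sets, and how they corrected and normalized them is not given in the sources used here. Gene symbols came from the platform's probe-to-gene table: 16098 probe sets had 1 symbol, giving 14884 genes. The other 37519 had no single symbol (none or several) and were left out. The probe set with the highest mean stood for a gene. Genes under the 40th percentile of mean level were left out, and the other 8930 were fitted in R 4.3.3 by limma 3.58.1 with eBayes moderation, Benjamini-Hochberg adjustment and calls at 0.05. Line was a term of each main fit. The fits of the lines and of shTOX against controls had shTOX (yes or no) as the other term. Scramble and untransduced arrays were pooled there, so their difference was part of the spread. The transduction and interaction fits pooled scramble with shTOX arrays. Comparisons with scramble cells had shTOX, scramble and untransduced as states. The hairpin fit had a term for each hairpin and pooled scramble with untransduced arrays. The procedure was tested on simulated data for transduced against untransduced cells only, with changes larger than any member's difference here. That simulation did not cover smaller differences or the other comparisons. The number of arrays limits the precision.

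Named were called members (up to 8 per direction, or the 3 with the smallest p), the member with the largest difference in each complex, members not tested, and called genes of the lists. The members and lists were chosen with earlier results of these data known. Alternatives were other filters, quantile normalization, the mean of probe sets, a trend in eBayes, a construct block, no line term and leaving out each array. Hairpin numbers name constructs, and hairpin differences correlated at 0.225 between the lines over 8930 genes.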

Additional observations from a re-analysis of the deposited data

Results flagged for a closer look

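Among 34 sets of 4 arrays (17 members in 2 lines), 2 held an array far from the other 3, where chance gives about 1 in 20. COX6A1 in CCRF-CEM was 12.415 in the untransduced cells and 12.856 to 12.933 in the transduced cells, a gap of 0.852 of the whole range. COX6A2 in HPB-ALL was 5.5664 in the shTOX-2 cells and 5.0304 to 5.0906 in the others, a gap of 0.888 of the range. COX6A2 was among the tested genes only through its high shTOX-2 arrays, so this flag is no separate support for a difference.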

How the results depend on the processing

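The lines differed in 5 members, and in 2 to 6 on leaving out 1 array. Transduced and untransduced cells differed in 3 members, in 0 to 4 on leaving out 1 array, and in 0 with no line term. The replicate block (construct shared by the lines) gave 6 members (UQCRC2 added) and 2 members (COX5A lost), ended the transduction calls of ETFDH, CMC2 and PTCRA, and could not be fitted for the interaction. Counts in the other comparisons stayed at 0 in every setting run. Of 1540 alternatives for single genes, 1261 kept direction and side of the threshold, 261 kept direction only and 18 reversed, and the cause was not tested. COX5B between the lines was 0.0679 after quantile normalization and -0.0483 to 0.0441 on leaving out 1 array. For transduction, quantile normalization gave UQCRB 0.017 and COX5B 0.0286, and leaving out 1 array gave -0.488 to 0.41 and -0.102 to 0.0799. UQCRB in scramble against untransduced cells ranged from -0.52 to 0.378. Between the hairpins UQCRB ranged from -0.015 to 0.354 and UQCRH from -0.193 to 0.286. With the mean of its probe sets, the COX6A1 interaction was -0.0278. The interaction could not be fitted without either untransduced array. All 101 alternatives for medians moved them by less than the typical standard error of 1 member's difference. That limit was larger than some of the medians, such as 0.0488 for shTOX against scramble, so a change of sign could pass it. With shorter motifs, NRF1 matches were in 29.4% of the 17 members with a promoter window, against 9.76% of all genes with one. ETS matches were in 47.1% against 22.6%.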
